A study of Homo sapiens with 8 samples.

Results

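Heat shock proteins and the DNAJ cochaperones that drive them were compared between SKOV3 cells given low-density lipoprotein (LDL) and SKOV3 cells without it. The members were chosen by gene name: every row named HSPA, HSPB or HSP90 with a number, every DNAJA, DNAJB or DNAJC gene, and HSPD1, HSPE1 and HSPH1. This took 73 of the 22554 features in the deposited tables, 37 of them cytosolic, 13 in the endoplasmic reticulum (ER), 9 mitochondrial and 14 with another location or role. SKOV3 is an established human ovarian cancer line. The 4 control samples grew in McCoy's 5A medium with 10% fetal bovine serum at 5% CO2, and the 4 LDL samples grew in that medium with LDL added at 50 µg/mL for 48 h. The title of the series asks about LDL, metastasis and the transcription factor FOXQ1, and chaperones are not named in it. A single line was used, and whether samples of a group were grown as independent cultures is not stated, so p-values reflect how much these particular samples vary, possibly for technical reasons alone.

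Chaperones of the HSP70 family hold and release unfolded protein in an ATP cycle. DNAJ proteins (HSP40) bring the client and trigger ATP hydrolysis, and HSP110 proteins exchange the nucleotide. HSP90 completes the folding of kinases and steroid receptors, small heat shock proteins such as HSPB1 hold aggregating protein, and the HSP60 chaperonin HSPD1 with its lid HSPE1 folds proteins of the mitochondrial matrix. Heat shock factor 1 (HSF1) drives the cytosolic genes when unfolded protein builds up, and the unfolded protein response does so for BiP (HSPA5), GRP94 (HSP90B1) and their partners in the ER. Excess lipid in the ER membrane is a known trigger of the latter.

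Total counts ran from 37189698 to 44883561 in control libraries and from 34682501 to 36780334 in LDL libraries, so all LDL libraries were shallower than all control libraries. Of 9 epithelial markers of the line, the receptor gene ERBB2 was at 2590 ± 133 CPM (counts scaled to library size with edgeR's TMM factors) without and 2515 ± 392 CPM with LDL (SD, n = 4 each), while EPCAM had means of 21.8 and 25.1 CPM and MUC16 of 0.88 and 0.439 CPM. None of the 9 was called, and 4 (44.4%) had an unadjusted edgeR p under 0.05, against 5.59% of all genes tested. Of these 4, KRT7 and MUC16 had lower means with LDL, and EPCAM and MUC1 higher ones. The part of these markers in the results below was not tested. Of the blood markers, PTPRC and HBB had a count of 0 in all 8 libraries, and the 8 blood markers together summed to 0.718 to 1.60 CPM. LDL sample 4 stood apart from the rest, at 46.1 on the first principal component of all tested genes (18.9% of the variance) against -17.4 to 1.86 for the other 7, with LDL sample 1 at the opposite end. LDL sample 4 was also low in the summed fibroblast and endothelial markers (159 CPM against 362 to 417 CPM in the other 7), most of which was COL1A1, and in immediate early genes (581 CPM against 704 to 958 CPM). For some of the members that moved with LDL sample 1 or 4, values without these samples are given too.

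Promoters of 6 abundant members are shown because they hold the elements through which HSF1 and the unfolded protein response are known to act. The sequences are RefSeq's for GRCh38.p14, and 65 of the 73 members had at least 1 window, 84 in all, reaching from 250 bases before the start of transcription to 50 after it. Only the 250 bases before the start are printed. Capitals mark the heat shock element, the site HSF1 is known to bind. Its 3-unit form is GAANNTTCNNGAA or, on the other strand, TTCNNGAANNTTC. The stretch of HSPA8, the constitutive HSP70, lies at chr11:123062137-123062386 on the minus strand and holds 2 such elements. That of HSP90AA1, the inducible HSP90, lies at chr14:102087045-102087294 on the minus strand and holds 1. That of HSPD1 lies at chr2:197499841-197500090 on the minus strand and holds 2 that overlap. That of HSPA1A, the stress-inducible HSP70, lies at chr6:31815293-31815542 on the plus strand and holds only the 2-unit form GAANNTTC, which is its own reverse complement and is also contained in each 3-unit element.
HSPA8: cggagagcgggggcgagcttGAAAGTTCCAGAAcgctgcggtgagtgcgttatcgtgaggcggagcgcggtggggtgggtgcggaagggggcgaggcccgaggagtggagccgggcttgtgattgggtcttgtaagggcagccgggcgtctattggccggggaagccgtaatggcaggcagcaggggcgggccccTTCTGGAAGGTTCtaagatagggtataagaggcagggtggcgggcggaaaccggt
HSP90AA1: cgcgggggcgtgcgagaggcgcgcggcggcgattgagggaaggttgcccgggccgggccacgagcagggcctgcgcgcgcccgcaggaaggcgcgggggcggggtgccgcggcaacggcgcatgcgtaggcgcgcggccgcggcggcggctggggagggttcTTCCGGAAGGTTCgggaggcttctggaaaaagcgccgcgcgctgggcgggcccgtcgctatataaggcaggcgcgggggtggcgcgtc
HSPD1: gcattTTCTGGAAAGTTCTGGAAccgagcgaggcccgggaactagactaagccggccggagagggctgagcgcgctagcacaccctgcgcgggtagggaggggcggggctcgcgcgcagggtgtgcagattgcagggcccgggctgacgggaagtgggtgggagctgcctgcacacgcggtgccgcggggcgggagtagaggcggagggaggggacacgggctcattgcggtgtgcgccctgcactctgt
HSPA1A: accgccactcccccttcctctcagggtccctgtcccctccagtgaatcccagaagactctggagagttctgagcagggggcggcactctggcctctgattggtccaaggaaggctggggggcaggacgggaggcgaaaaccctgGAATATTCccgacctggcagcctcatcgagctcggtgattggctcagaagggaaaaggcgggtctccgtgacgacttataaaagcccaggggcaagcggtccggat

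For the ER, capitals mark the ER stress response element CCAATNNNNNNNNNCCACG or its reverse complement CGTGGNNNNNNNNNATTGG, through which ATF6 is known to act. The stretch of HSPA5 lies at chr9:125241344-125241593 on the minus strand and holds 1 element, and that of HSP90B1 lies at chr12:103930160-103930409 on the plus strand and holds 2.
HSPA5: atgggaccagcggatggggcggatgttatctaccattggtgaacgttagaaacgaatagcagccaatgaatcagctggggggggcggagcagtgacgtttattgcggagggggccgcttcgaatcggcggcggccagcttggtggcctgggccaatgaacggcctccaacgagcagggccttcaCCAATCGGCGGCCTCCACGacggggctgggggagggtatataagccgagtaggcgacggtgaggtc
HSP90B1: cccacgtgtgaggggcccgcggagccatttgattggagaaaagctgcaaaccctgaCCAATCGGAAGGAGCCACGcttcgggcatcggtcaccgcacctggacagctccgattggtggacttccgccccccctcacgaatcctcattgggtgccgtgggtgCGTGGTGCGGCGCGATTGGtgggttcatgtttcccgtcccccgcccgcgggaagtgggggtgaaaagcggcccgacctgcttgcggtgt

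Among all 35116 promoter windows in the table, searched on both strands, 0.49% held the 3-unit heat shock element, 6.77% the 2-unit form and 0.0769% the ER stress response element. Of the 84 member windows, 7 held the 3-unit element, 18 the 2-unit form and 2 the ER element. The 3-unit element was found in 7 members (DNAJA1, DNAJB6, HSP90AA1, HSP90AB1, HSPA6, HSPA8 and HSPD1) and the ER element in 2, HSPA5 and HSP90B1. In HSPA8 the elements lie at -230 to -218 and at -55 to -43, counted from the start with -1 as the last base before it, in HSP90AA1 at -88 to -76, in HSPA5 at -66 to -48, and in HSP90B1 at -194 to -176 and -89 to -71. A match of letters is a description and not evidence of binding.

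Levels between genes are compared in FPKM, which is scaled to transcript length. The cytosolic chaperones were the most abundant members. HSP90AB1, the constitutive HSP90, had a mean of 646 FPKM over the 8 libraries and ranked 77 of all 22554 features. HSPA8 followed at 638 FPKM, HSP90AA1 at 477 FPKM and HSPB1 (HSP27) at 427 FPKM. HSP90AB1 and HSPA8 did not differ beyond their spread in the control samples (644 ± 16.7 and 646 ± 35.5 FPKM, SD, n = 4). In the ER the HSP90 paralog HSP90B1 stood at 291 FPKM and HSPA5 at 209.6 FPKM, well above their J-domain partners DNAJB11 (49.9 FPKM), DNAJC3 (9.47 FPKM) and DNAJB9 (2.29 FPKM). In mitochondria HSPD1 stood at 222 FPKM, HSPE1 at 126 FPKM, the matrix HSP70 HSPA9 (mortalin) at 108 FPKM and its partner DNAJA3 at 26.5 FPKM.

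Stress-inducible HSP70 mRNA was present without added stress. HSPA1A stood at 65.5 ± 3.1 FPKM and HSPA1B at 59.6 ± 2.04 FPKM in control samples (SD, n = 4), while HSPA6, the HSP70 that is induced almost from nothing by heat, was at 0.246 ± 0.138 FPKM. Among small heat shock proteins, HSPB8 had a mean of 3.36 FPKM over the 8 libraries, and CRYAB, which the name rule leaves out, had 7.89 FPKM. Others were close to the floor: HSPB2, HSPB3, HSPB6, HSPB7 and HSPB9 had too few counts to be tested, as had DNAJB8, DNAJC5B and DNAJC5G. No library held a single count of HSPB3 or DNAJC5B; a count of 0 leaves room for 3 counts at most, equal to 0.0673 CPM in the deepest library and 0.0872 CPM in the shallowest, counting error only. The other 65 members were tested.

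**Figure D1:**
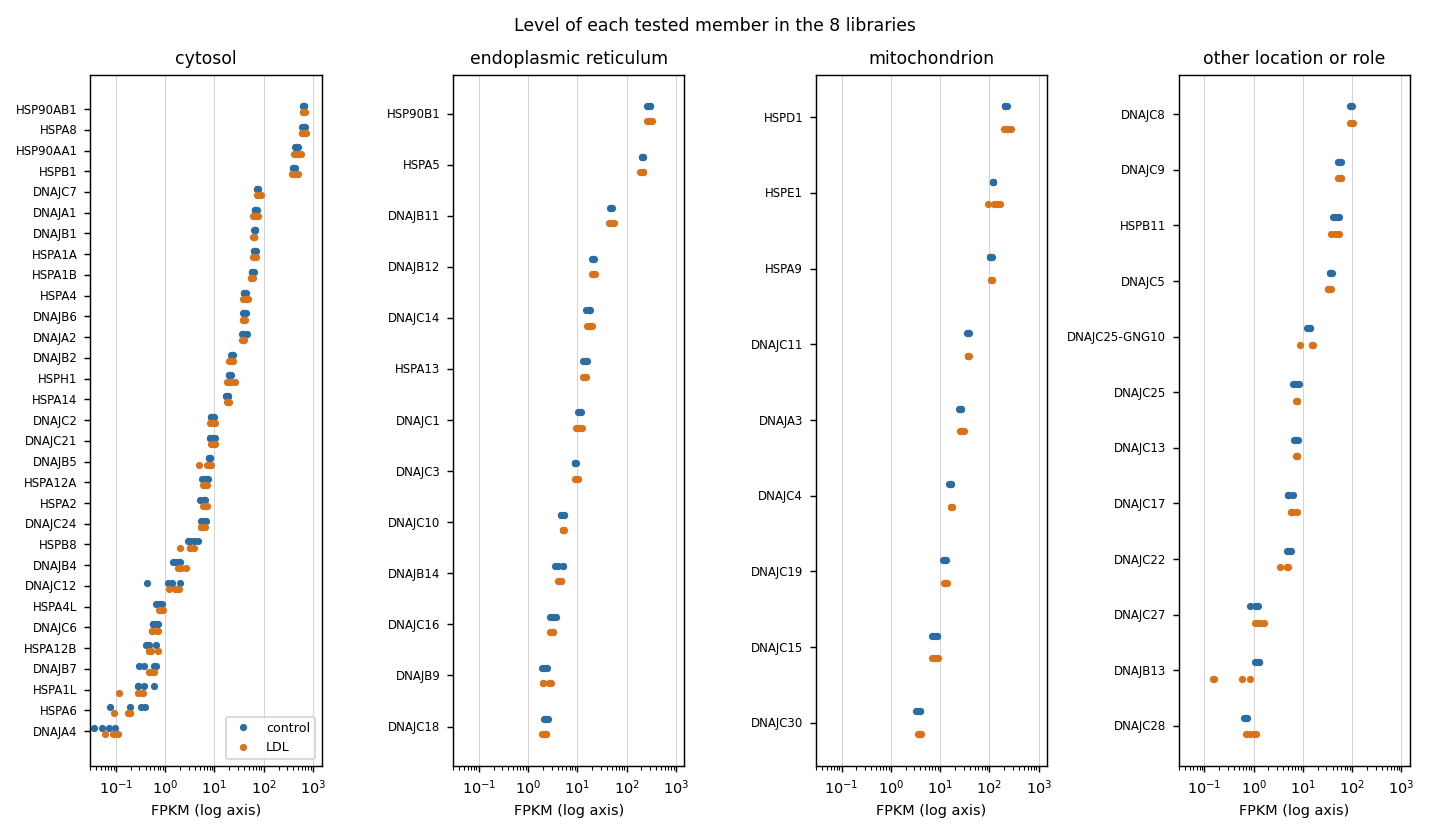
FPKM (log axis) of the 65 tested members in the 8 libraries, with a panel for each location, 1 row per gene ordered by mean level, blue points for the 4 control and orange points for the 4 LDL libraries. Mean levels ran from 0.0764 FPKM (DNAJA4) to 646 FPKM (HSP90AB1), and blue and orange points lie on top of each other in nearly every row.

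No chaperone or cochaperone passed the test between LDL and control. At a Benjamini-Hochberg adjusted p under 0.05 in edgeR's quasi-likelihood test, 0 of the 65 members were called, where 10 of all 15432 genes tested (0.0648%) were called. DESeq2 and limma voom on the same samples also called 0 members. At an unadjusted p under 0.05 there were 2 members, DNAJC5 and DNAJB13, against 5.59% of all genes, and the groups did not overlap in CPM in 1 member, DNAJB13, against 3.45% of all genes. The shares of members, 3.08% and 1.54%, were under those of all genes. Of the 65 members 40 had a log2 fold change above 0, and their median was 0.026, beside 0.0060 over all genes tested. In bulk RNA, fewer cells holding a transcript and less of it per cell cannot be told apart.

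The intervals say how large a change could have been missed. In 46 of the 65 members the 95% interval of the fold change lay within 1.25-fold in both directions, and in 57 it lay within 1.5-fold. Over all genes tested these shares were 57.9% and 76.3%. Of the 51 members with a mean of at least 10 CPM, all 51 lay within 1.5-fold, against 98% of all genes at that level. Of the 14 below 10 CPM, which include HSPA6, HSPB8, DNAJB9 and DNAJA4, none lay within 1.25-fold and 6 lay within 1.5-fold, so for the other 8 a change beyond 1.5-fold was not outside the interval.

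**Figure D2:**
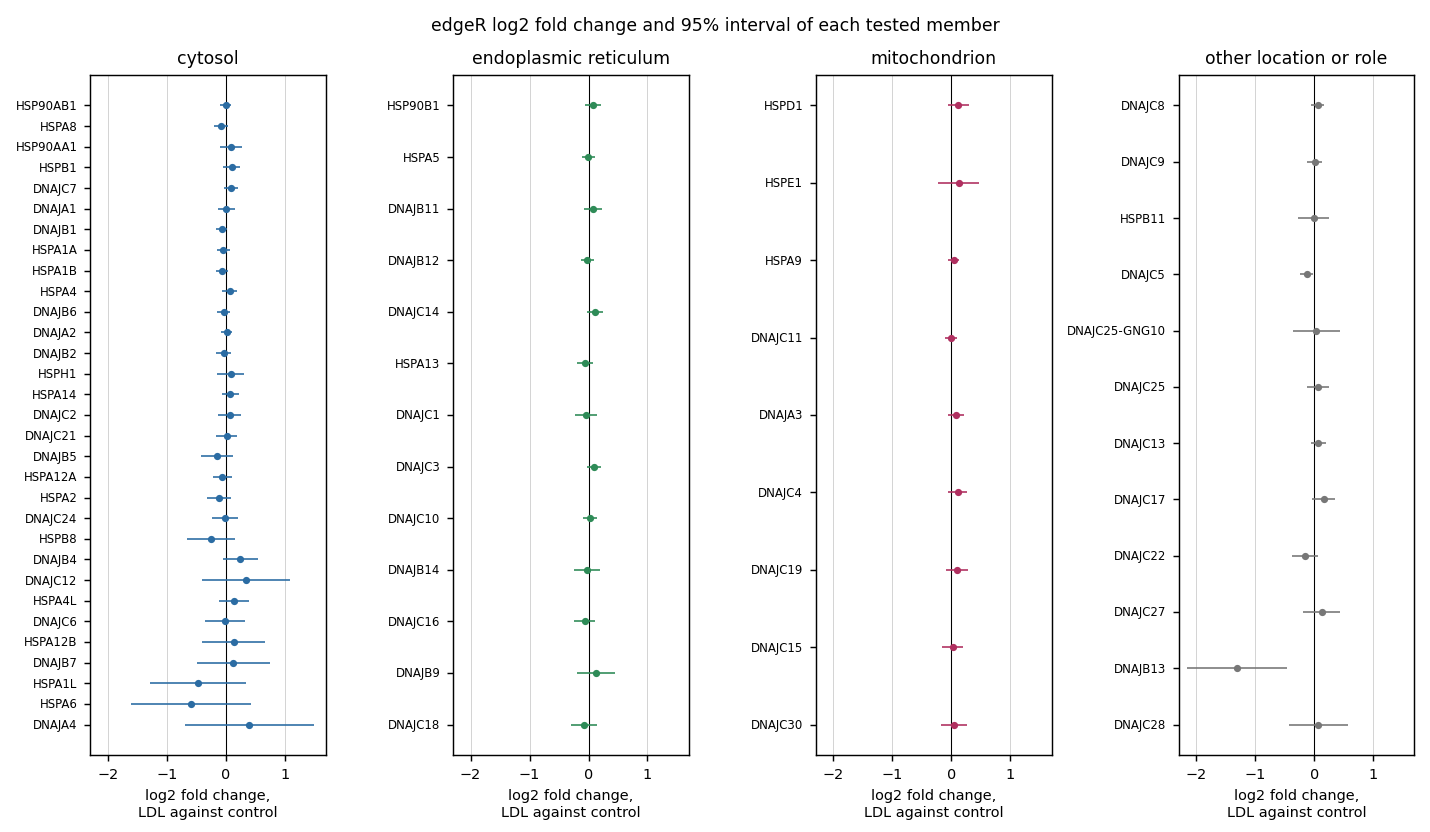
Log2 fold change of LDL against control (points) with its 95% interval (bars) from edgeR for the 65 tested members, in a panel per location and ordered by mean FPKM with the most abundant at the top. Intervals cover 0 in all members but DNAJC5 and DNAJB13, and they widen towards the rare genes at the bottom.

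The cytosolic HSP70 and HSP90 machines were at about the same level in both groups. HSP90AB1 was at 1751, 1672, 1736 and 1762 CPM in control samples 1 to 4 and at 1643, 1787, 1699 and 1806 CPM in LDL samples 1 to 4. The LDL samples lay on both sides of the control samples, and the fold was 1.00 with a 95% interval of 0.938 to 1.07. HSPA8, whose HSP70 handles most routine folding, was at 1520, 1410, 1550 and 1598 CPM in control samples, and at 1367, 1389, 1408 and 1591 CPM with LDL. LDL samples 1, 2 and 3 were below all control samples and LDL sample 4 was second only to control sample 4, with a log2 fold change of -0.08 (SE 0.055, edgeR adjusted p = 0.885). With LDL sample 4 left out it was -0.13, with an unadjusted edgeR p of 0.012 and an adjusted p of 0.728.

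The stress-inducible genes HSPA1A, HSPA1B and DNAJB1 had no higher mean with LDL. HSPA1A was at 163, 160.1, 162 and 177 CPM in control samples, and at 149, 160.7, 160.3 and 173 CPM with LDL. Its near-identical copy HSPA1B was at 154, 154, 158 and 166 CPM in control samples, and at 146, 151, 146 and 162 CPM with LDL. The groups overlapped for both, with folds of 0.971 (95% interval 0.898 to 1.05) and 0.958 (0.891 to 1.03), so a rise above 1.05-fold lay outside both intervals. DNAJB1, a stress-inducible HSP40, was at 159, 159.9, 151 and 159.9 CPM in control samples, and at 151, 144, 153 and 152 CPM with LDL. Control sample 3 fell among the LDL samples and the other 3 controls lay above them, with a fold of 0.952 (0.89 to 1.02, edgeR adjusted p = 0.884). HSPA6 was too low to compare, with 0.207 to 0.965 CPM in control samples and 0.23 to 0.494 CPM with LDL.

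HSP90AA1, HSPH1 and DNAJA1 varied more among the LDL samples than between the groups. HSP90AA1 was at 1672, 1564, 1570 and 1472 CPM in control samples, and at 1388, 1712, 1636 and 1936 CPM with LDL. LDL sample 1 was the lowest of all 8 and LDL sample 4 the highest, 1.39-fold above it, so that the SD was 226 CPM among LDL and 81.6 CPM among control samples. The log2 fold change of HSP90AA1 was 0.09 (SE 0.086), and 0.0082 without LDL sample 4. Without LDL sample 1 it was 0.17, with an unadjusted edgeR p of 0.0108 and an adjusted p of 0.183. HSPH1, an HSP110 exchange factor, was at 114, 104, 104 and 101 CPM in control samples, and at 93.1, 108, 109 and 138 CPM with LDL, again with LDL sample 1 lowest and LDL sample 4 highest. Its log2 fold change of 0.08 (SE 0.103) was -0.03 without LDL sample 4 and 0.16 without LDL sample 1. DNAJA1, a housekeeping HSP40, was at 173, 159, 162 and 163 CPM in control samples, and at 144, 169, 163 and 187 CPM with LDL, in the same order.

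HSPB1 (HSP27) did not follow this order. It was at 331, 322, 329 and 357 CPM in control samples, and at 347, 386, 396 and 309.9 CPM with LDL, with LDL sample 4 the lowest of all 8 and LDL samples 2 and 3 the highest. Its log2 fold change came to 0.10 (SE 0.068; edgeR adjusted p = 0.884), 0.17 without LDL sample 4 (adjusted p = 0.530) and 0.22 without LDL samples 1 and 4 (adjusted p = 0.0152). That last comparison, of LDL samples 2 and 3 with the 4 controls, was chosen after seeing the data and is the only one in which any member was called. It called 248 genes in all.

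Over the 31 tested cytosolic members, 17 had a log2 fold change above 0 and the median was 0.013, beside 0.0060 for all genes. By class, 3 of the 12 tested HSP70 members of all compartments lay above 0 (median -0.06). All 3 HSP110 members (median 0.08) and all 3 HSP90 members (median 0.08) did too. HSP90AB1, at 0.0027, turned below 0 under 3 other settings of scaling or filtering and in 3 of 8 fits without 1 sample. The name rule leaves out HYOU1, an HSP110 relative in the ER, at -0.11 (SE 0.057), and TRAP1, the mitochondrial HSP90, at 0.04 (SE 0.054). Among cytosolic members the lowest fitted values belonged to HSPA6 (-0.59, SE 0.481) and HSPA1L (-0.47, SE 0.382), both at or under 1.73 CPM in every library, and the highest to DNAJA4 (0.40, SE 0.52), at or under 0.379 CPM. Among cytosolic J proteins, DNAJA2 stood at 0.013, DNAJB6 at -0.03, DNAJB2 at -0.04 and DNAJC7, which links HSP70 to HSP90, at 0.09 (SE 0.059). DNAJB5 at -0.15 (SE 0.127) and the rarer DNAJB4 at 0.25 (SE 0.144) lay further from 0. Without LDL sample 4 DNAJB5 was at -0.011.

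**Figure D3:**
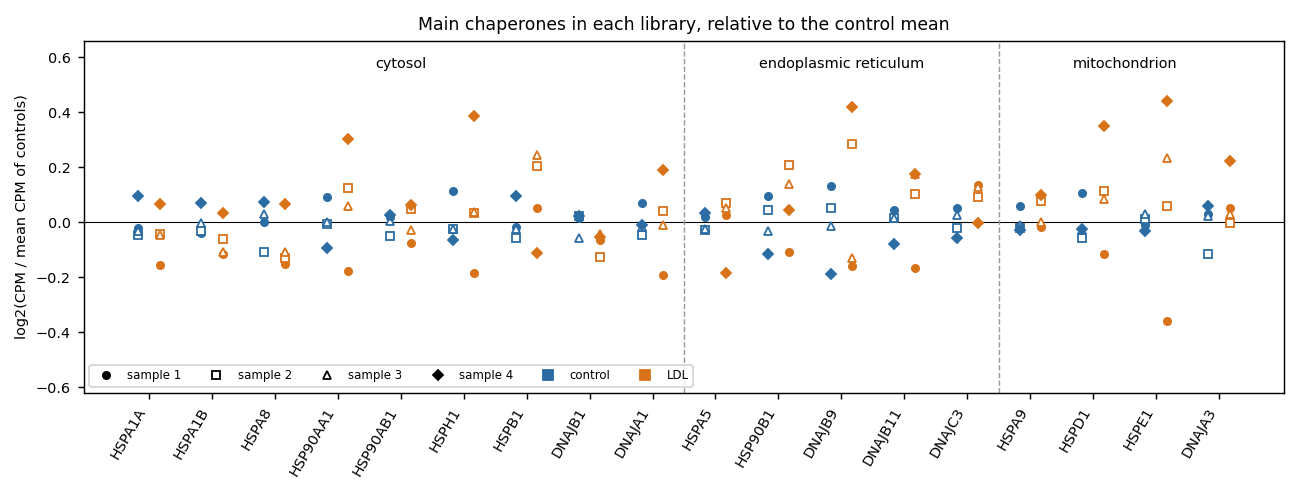
Log2 of CPM over the control mean for 18 main chaperones of the 3 compartments, blue for control and orange for LDL, with a marker shape for each sample number and filled markers for samples 1 and 4. The filled orange circle (LDL sample 1) is low and the filled orange diamond (LDL sample 4) high for HSP90AA1, HSPH1, DNAJA1, HSPD1 and HSPE1, while LDL sample 4 is the lowest for HSPB1 and HSPA5.

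The order of the LDL libraries was counted over all members. LDL sample 1 was the lowest and LDL sample 4 the highest of the 4 LDL samples in 23 of 65 members (35.4%), against 13% of all genes tested. This held in 13 of 31 cytosolic members, 5 of 9 mitochondrial members and 2 of 13 in the ER. They included both cytosolic HSP90 genes, HSPA8, HSPA1A, HSPA1B, HSPH1, HSPA4, HSPD1, HSPE1 and HSPA9, and the ratio of LDL sample 4 to LDL sample 1 ran from 1.04 in DNAJC13, an endosomal J protein, to 1.74 in HSPE1. The members share libraries and were compared within 1 group, so the count describes these 4 libraries. The SD among LDL samples was above that among controls in 39 of 65 members (60%), beside 64.9% of all genes. LDL sample 4, the highest in this order, was the lowest in the fibroblast and endothelial marker sum and in the immediate early gene sum. The part of these sums in the order was not tested.

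In the ER, neither BiP nor GRP94 was called, and the value of GRP94 depended on LDL sample 1. HSPA5 (BiP) was at 875, 846, 847 and 884 CPM in control samples, and at 878, 907, 894 and 760.1 CPM with LDL. LDL sample 1 lay within the control range, LDL samples 2 and 3 above it and LDL sample 4 below all others. The fold was 0.996 with a 95% interval of 0.921 to 1.08 (edgeR adjusted p = 0.993), and with LDL sample 4 left out its log2 value was 0.05 (adjusted p = 0.980). HSP90B1 (GRP94) was at 901, 869, 825 and 778 CPM in control samples, and at 782, 973, 928 and 870.2 CPM with LDL. LDL samples 2 and 3 lay above all controls, and the fold was 1.05 (0.958 to 1.16). On the log2 scale its 0.08 became 0.13 without LDL sample 1, with an unadjusted edgeR p of 0.0202 and an adjusted p of 0.240, and 0.17 without LDL samples 1 and 4, with an unadjusted edgeR p of 0.00212 and an adjusted p of 0.0843.

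None of the J proteins of the ER was called, and they moved in different ways when LDL sample 1 or 4 was left out. DNAJB11 (ERdj3), which binds unfolded secretory protein, was at 86.7, 84.8, 85 and 79.6 CPM in control samples, and at 74.8, 90.1, 94.9 and 94.8 CPM with LDL. LDL sample 1 was below all controls and the other 3 above them, with a log2 fold change of 0.08 (SE 0.069), or 0.15 without LDL sample 1 with an unadjusted edgeR p of 0.00878 and an adjusted p of 0.171. DNAJC3 (P58IPK) was at 55.8, 53.1, 54.8 and 51.7 CPM in control samples, and at 59.1, 57.3, 58.9 and 53.7 CPM with LDL. LDL samples 1, 2 and 3 lay above all controls, and the log2 fold change came to 0.09 (SE 0.058, edgeR adjusted p = 0.884). That value became 0.07 without LDL sample 1 and 0.12 without LDL sample 4. DNAJB9 (ERdj4), among the most inducible targets of the unfolded protein response, was at 4.87 to 6.08 CPM in control samples and at 4.98 to 7.44 CPM with LDL, with a fold of 1.09 (0.868 to 1.37). Its log2 fold change of 0.13 became 0.014 without LDL sample 4 and 0.21 without LDL sample 1. DNAJC10 stood at 0.03 (SE 0.057) and DNAJC1 at -0.05 (SE 0.089). Of the 13 ER members 6 had a log2 fold change above 0, the median was -0.0056, and all 13 intervals lay within 1.5-fold.

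The main mitochondrial chaperones had slightly higher means with LDL, and none passed the test. HSPD1 (HSP60) was at 544, 485, 496 and 496 CPM in control samples, and at 466, 547, 536 and 644 CPM with LDL. LDL sample 1 was below all controls and LDL samples 2 and 4 above them, and the fold was 1.09 (95% interval 0.958 to 1.23, edgeR adjusted p = 0.891). HSPE1 (HSP10) was at 69.1, 70.2, 71 and 68.1 CPM in control samples, and at 54.3, 72.5, 81.9 and 94.5 CPM with LDL, with LDL sample 1 again below and the other 3 above all controls. Its SD was 16.9 CPM among LDL and 1.28 CPM among control samples, and its fold was 1.09 (0.853 to 1.39). HSPA9 was at 513, 485, 488 and 482 CPM in control samples, and at 486, 519, 492 and 527 CPM with LDL, with a fold of 1.03 (0.963 to 1.10), and DNAJA3 had a fold of 1.06 (0.964 to 1.16).

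HSPD1 and HSPE1 lie on opposite strands of chromosome 2, and the annotated span of HSPD1 holds all of HSPE1. How strand was used in counting is not given in the sources used here. On GRCh38 HSPD1 runs from 197486581 to 197516737 on the minus strand and HSPE1 from 197499994 to 197503457 on the plus strand (GENCODE release 29), and 1 of the 2 RefSeq promoter windows of HSPD1 overlaps that of HSPE1 by 204 bases. Both were lowest in LDL sample 1 and highest in LDL sample 4, 1.38-fold apart for HSPD1 and 1.74-fold apart for HSPE1. Without LDL sample 4 their log2 fold changes were 0.03 and -0.0011. Without LDL sample 1 they were 0.19 and 0.25, with unadjusted edgeR p of 0.0106 and 0.00265 and adjusted p of 0.183 and 0.103.

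All 9 mitochondrial members had a log2 fold change above 0, beside 52.3% of all genes tested. They ran from 0.0012 (DNAJC11, of the cristae) to 0.12 (HSPE1), with a median of 0.08 beside 0.0060 for all genes. The count above 0 was 8 of 9 with DESeq2, with its size factors or upper-quartile factors in edgeR, and with either other count filter. It was also 8 of 9 without any 1 of the control samples or without LDL sample 1, and 7 of 9 without LDL sample 4 or without LDL sample 2. Without LDL sample 4 the median was 0.02. The J proteins of the import motor, DNAJC15 and DNAJC19, stood at 0.02 (SE 0.085) and 0.09 (SE 0.089). HSCB, a mitochondrial J protein that the name rule leaves out, stood at -0.06 (SE 0.103). No mitochondrial member had an unadjusted p under 0.05 or groups that did not overlap.

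Summed over the members of a compartment, the groups differed by less than the SD among the LDL samples, while the mitochondrial difference was larger than the SD among the controls. Cytosolic members summed to 6751 ± 158 and 6802 ± 468 CPM in control and LDL samples, ER members to 2232 ± 72.1 and 2283 ± 119 CPM, and mitochondrial members to 1370 ± 44.6 and 1441 ± 117 CPM (SD, n = 4 each). The mitochondrial ratio of 1.05 became 1.02 without LDL sample 4 and 1.08 without LDL sample 1. The 13 genes encoded by mitochondrial DNA, whose products the chaperones of the matrix help to assemble, summed to 29161 ± 701 and 27668 ± 1242 CPM in control and LDL samples, a ratio of 0.949. Altogether the 73 members took 1.04% to 1.19% of the counts of a library.

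**Figure D4:**
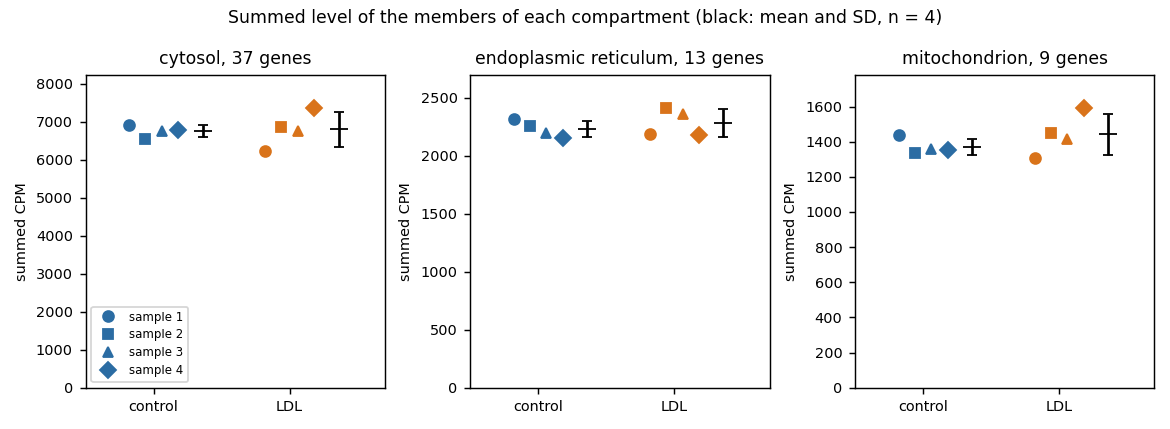
Summed CPM of the cytosolic (37 genes), ER (13) and mitochondrial (9) members in each library, with a marker shape for each sample number and the mean and SD of each group in black, on axes that start at 0. The LDL samples span the control samples for cytosol and mitochondrion, with LDL sample 1 lowest and LDL sample 4 highest there, and overlap them for the ER.

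The 2 members with the smallest p both have roles outside these compartments, and both had lower means with LDL. DNAJB13, a J protein of the sperm and cilia axoneme, is annotated at chr11:73950319-73970366 (GRCh38, plus strand). It had counts of 56, 64, 52 and 64 in control and of 10, 23, 39 and 10 in LDL samples. Every LDL sample lay below every control sample, and LDL sample 3 lay closest to them. The levels were 1.46 ± 0.169 and 0.588 ± 0.402 CPM (SD, n = 4 each), and the log2 fold change was -1.31 (SE 0.402, 95% interval -2.16 to -0.46). The unadjusted edgeR p was 0.00464 and the adjusted p 0.630. With LDL samples 1 and 4 left out, which had the lowest counts, the log2 value of DNAJB13 was -0.71, with an unadjusted edgeR p of 0.0646, and over all settings run it lay between -1.83 and -0.64. The antisense gene AP003717.1 is annotated over part of DNAJB13 on the other strand, and how strand was used in counting is not given in the sources used here.

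DNAJC5, the cysteine string protein of secretory vesicles, is annotated at chr20:63895182-63936031 (GRCh38, plus strand). It was at 201, 196, 203 and 215 CPM in control samples, and at 197, 183, 185 and 178 CPM with LDL. LDL samples 2, 3 and 4 lay below all controls and LDL sample 1 among them. The fold was 0.914 (95% interval 0.851 to 0.982), with an edgeR p of 0.0171 unadjusted and 0.822 adjusted. Other members outside these compartments included DNAJC8, a splicing factor, at 0.06 (SE 0.055) on the log2 scale, DNAJC9, a histone chaperone, at 0.0053 (SE 0.062), and HSPB11, a protein of intraflagellar transport in spite of its name, at -0.01 (SE 0.119).

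Some members share sequence with other genes, and how the authors' counting split such reads is not known. Windows of 100 bases were compared only among transcripts of genes whose names start with HSP or DNAJ. Of all such windows of HSPA1A transcripts, 67.3% were also found in HSPA1B, and 68.8% in the reverse direction. Their promoter windows were 92% identical. Summed to 1 row, the pair had a log2 fold change of -0.05. HSPA6 shared 27.6% of its windows with HSPA7, and HSPE1 6.71% with other genes, chiefly the read-through gene HSPE1-MOB4, which had a count of 0 in all 8 libraries. The read-through gene DNAJC25-GNG10, which the name rule also takes, shared 19.3% of its windows with DNAJC25. It also overlaps GNG10 on the same strand, and sequence shared with GNG10 was not measured. DNAJC25-GNG10 was at 21.2, 21, 20.8 and 18.5 CPM in control samples, and at 12.8, 23.1, 24.4 and 23.2 CPM with LDL. LDL sample 1 lay far below the rest.

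Leaving out the libraries at either end of the LDL group changed how many members had a small p. Without LDL sample 1, 11 of 65 members had an unadjusted edgeR p under 0.05, while 2273 of 15625 genes did. They were HSPD1, HSPE1, HSP90B1, DNAJB11, HSP90AA1, HSPA4, DNAJC7, DNAJC8 and DNAJC25-GNG10, all higher with LDL, and DNAJC5 and DNAJB13, lower. None was called, and the smallest adjusted p was 0.098 for DNAJC5. Without LDL sample 4, 5 of 66 members (HSPB1, HSPA8, DNAJC17, DNAJC5 and DNAJB13) had such a p, while 821 of 15619 genes did. None of these was called either.

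The regulators and partners of the chaperones were read from lists of genes outside the family. HSF1 itself was at 114 ± 2.33 and 116 ± 2.31 CPM in control and LDL samples (SD, n = 4 each), with a log2 fold change of 0.02 (SE 0.047, edgeR adjusted p = 0.969). Of 18 heat shock factors and further HSF1 targets, 0 were called, 13 lay above 0 and the median was 0.03. An unadjusted edgeR p under 0.05 was found in 1 (5.56%), against 5.59% of all genes tested. The smallest p belonged to SERPINH1 (HSP47, a collagen chaperone), at 167 ± 3.98 and 179.6 ± 6.61 CPM in control and LDL samples with an unadjusted edgeR p of 0.0436 and an adjusted p of 0.878, and to IER5, a coactivator of HSF1, at 61.7 ± 1.74 and 67.9 ± 6.58 CPM. Of 19 cochaperones of HSP70 and HSP90, none was called and none had an unadjusted p under 0.05, with a median of 0.02. The shares of all genes tested were 0.0648% and 5.59%. The ubiquitin ligase STUB1 (CHIP) stood at 0.09 (SE 0.055) and NUDC, a partner of HSP90, at 0.10 (SE 0.065).

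Of the 14 subunits of the cytosolic chaperonin TRiC and of prefoldin, which hands it actin and tubulin, 13 lay above 0, with a median of 0.04. None was called and none had an unadjusted p under 0.05. Among all genes tested 52.3% lay above 0, 0.0648% were called and 5.59% had such a p. The smallest p were those of the prefoldin subunits PFDN2 (0.17, SE 0.086) and PFDN6 (0.14, SE 0.079), both with LDL sample 1 below all controls and LDL samples 2, 3 and 4 above them. Of 20 partners in mitochondria, none was called or had an unadjusted p under 0.05, the latter against 5.59% of all genes. Above 0 lay 12 of the 20 (60%), against 52.3% of all genes, and the median was 0.03. GRPEL1, the exchange factor of HSPA9, stood at 0.15 (SE 0.07), or 0.082 without LDL sample 4, and CLPB, a disaggregase, at 0.15 (SE 0.082), or 0.0056 without LDL samples 1 and 4.

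Of 32 tested genes of ER folding and the unfolded protein response, 0 were called. An unadjusted edgeR p under 0.05 was found in 2 (6.25%), both targets of ATF4, against 5.59% of all genes tested. TRIB3 was at 24.2, 25.6, 27.9 and 27.8 CPM in control samples, and at 26.5, 29.7, 31.7 and 36 CPM with LDL. LDL samples 2, 3 and 4 lay above all controls, with a log2 fold change of 0.23 (SE 0.089), an unadjusted edgeR p of 0.0199 and an adjusted p of 0.830. DDIT3 (CHOP) was at 6.47, 7.15, 6.46 and 6.64 CPM in control samples, and at 6.46, 7.38, 8.65 and 10.8 CPM with LDL, with a log2 fold change of 0.32 (SE 0.148), an unadjusted edgeR p of 0.0473 and an adjusted p of 0.879. The value of TRIB3 became 0.15 and that of DDIT3 0.17 without LDL sample 4, and 0.30 and 0.42 without LDL sample 1. The median of the list was 0.0078. XBP1, the transcription factor behind DNAJB9, was at 70.6 ± 4.17 and 71.4 ± 4.00 CPM in control and LDL samples. Splicing of XBP1 mRNA and the activity of XBP1 and HSF1 were not measured.

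**Figure D5:**
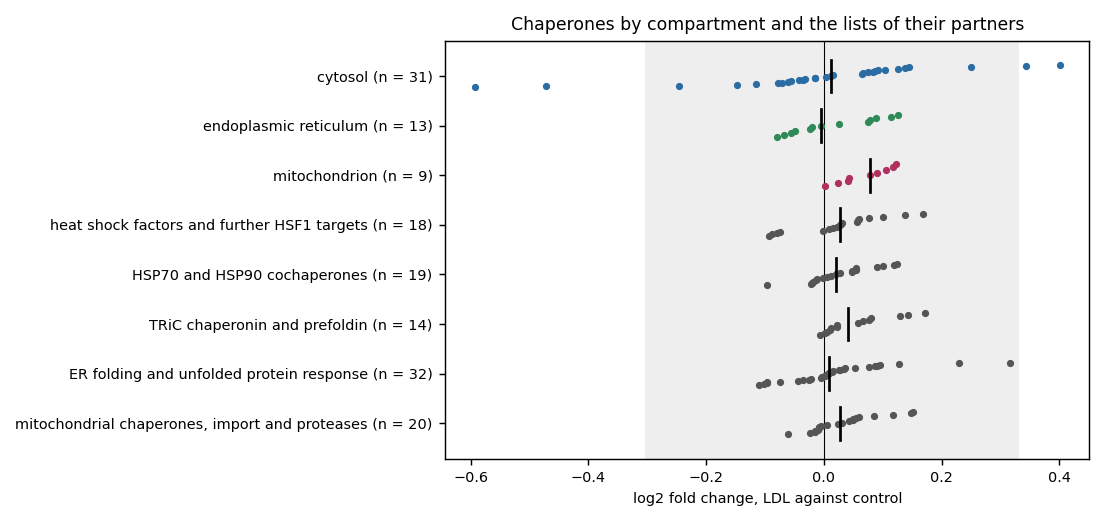
Log2 fold changes of LDL against control for the tested members of the 3 compartments and for 5 lists of their regulators and partners, 1 point per gene, with black bars at the medians and a grey band from the 5th to the 95th percentile of all genes tested (-0.30 to 0.33). Medians lie between -0.0056 (ER) and 0.08 (mitochondrion), and most points fall within the grey band.

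Members grouped by heat shock element had medians near 0, and those grouped by CCACGT or the CCAAT box had medians of 0.08 and 0.07. Each of these groups had genes on both sides of 0. The 7 members with a 3-unit heat shock element had a median log2 fold change of 0.0027, with 4 above 0. The 16 tested members with the 2-unit form had a median of -0.02, with 7 above 0 and a range of -0.59 to 0.40. HSPA5 and HSP90B1, which hold the ER stress response element printed above, stood at -0.0056 and 0.08. The core CCACGT, which XBP1 and other factors are known to bind, was present in 9.72% of all windows and in 14 of the 84 member windows. These belonged to 13 members, of which 12 lay above 0 with a median of 0.08 and a range of -0.13 to 0.34. The CCAAT box was present in 34.6% of all windows and in 32 of the 84 member windows, which belonged to 27 members. Of the 24 tested 16 lay above 0, with a median of 0.07 and a range of -0.47 to 0.34. Over all genes tested 52.3% lay above 0, and over the 65 tested members 61.5% did, with a median of 0.026. None of the members with these elements was called, and DNAJC5 was the member with CCACGT below 0.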

How the data were processed

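Poly(A)-selected, stranded libraries were made from total RNA of 4 control and 4 LDL samples of SKOV3 cells, per the labels' protocols. Per the submitters' processing notes the tools were HISAT2, featureCounts and DESeq2 1.26.0 and the build GRCh38; the role of each and the settings for strand and shared reads are not stated there. The authors' deposited count table holds whole numbers, 55.2% of them even between 1 and 20, and was handled as estimated counts that needed no further rounding. The deposited FPKM values, which the authors scaled to length and depth, served for levels between genes and in alternatives.

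All 15432 genes that passed filterByExpr were fitted in R 4.3.3 with edgeR 4.0.16 (quasi-likelihood test, TMM, robust dispersion, no term beside group), and p-values were adjusted over all of them by Benjamini-Hochberg, with calls under 0.05. CPM are scaled by TMM. Chi-square per degree of freedom between 2 libraries of a group was 6.72 to 28.8, above counting noise, so none was taken for a repeat deposit of another; this does not show that they came from separate cultures. The members, lists and named genes were chosen with earlier results of these data known. The naming rule takes 18 main chaperones, members with an unadjusted p under 0.05, the 3 most abundant of each compartment, the 2 genes of smallest p in each partner list, the read-through genes and HSF1; other members and list genes named in the text were chosen after their values were seen. Compartments and roles were assigned by hand from textbook knowledge. Promoters and their motifs came from RefSeq (GRCh38.p14), and positions and overlaps from GENCODE release 29. Alternatives were other scalings and filters, DESeq2 1.42.0, limma 3.58.1 (voom, and log2 FPKM with a pseudocount of 1 or 0.1), a replicate block, samples left out, and copies summed. The test was also run on simulated data. Those counts were drawn independently, without shifts of a whole sample such as those of LDL samples 1 and 4.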

Additional observations from a re-analysis of the deposited data

Results flagged for a closer look

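In 78 groups of 4 samples the highest or lowest value was checked for a gap to its neighbour beyond Dixon's critical share of the group's range, which chance passes in about 1 group in 20. It was passed in 3. DNAJB1 was at 151 CPM in control sample 3, where the other controls were at 159 to 159.9 CPM. DNAJC25-GNG10 was at 18.5 CPM in control sample 4, where the other controls were at 20.8 to 21.2 CPM. The same read-through gene was at 12.8 CPM in LDL sample 1, where the other LDL samples were at 23.1 to 24.4 CPM.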

How the results depend on the processing

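The number of called genes, 10 in the edgeR fit, was 48 with DESeq2, 5 with limma on log2(FPKM + 0.1) and 2 on log2(FPKM + 1) with no minimum. With 1 sample left out it ran from 2 to 149, with 149 without LDL sample 1 and 26 without LDL sample 4, and it was 248 without both. No member was called in any of these fits except HSPB1 when LDL samples 1 and 4 were both left out (1 member). With the replicate number as a block 2 genes and 0 members were called. The labels do not tie the numbers to shared cultures, same-numbered deviations correlated at -0.10, 0.06, 0.03 and -0.0043, and 1 of the 4 numbers matched itself best. Over the settings the median log2 fold change ran from -0.012 to 0.028 in the cytosol, from -0.016 to 0.049 in the ER and from 0.020 to 0.095 in mitochondria, so that the first and the second turned sign.

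Among the genes named by the rule, directions of small log2 fold changes turned in 8; other members near 0 turned too, DNAJA2, DNAJC15, DNAJC21 and DNAJC6 without LDL sample 4 and DNAJB2, DNAJC1, DNAJC11 and DNAJC24 without LDL sample 1. With upper-quartile factors, no count filter and a filter of 1 CPM in turn, HSP90AB1 was at -0.0061, -0.0060 and -0.0035, and DNAJC9 at -0.0035, -0.0035 and -0.00091. DNAJC25-GNG10 was at -0.011 with limma voom. Without LDL samples 1 and 4, HSPA5 was at 0.057 and HSPB11 at 0.041. With 1 sample left out, HSP90AB1 ran from -0.017 to 0.028, HSPH1 from -0.035 to 0.16, DNAJA1 from -0.051 to 0.075, HSPA5 from -0.035 to 0.049, HSPE1 from -0.0011 to 0.25, DNAJC9 from -0.038 to 0.043, HSPB11 from -0.083 to 0.094, and DNAJC25-GNG10 from -0.047 to 0.21. The cause was not tested. These genes were not called in the fits in which they turned. The 95% interval reached beyond 1.25-fold in 19 of 65 members.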
